A study of Homo sapiens with 9 samples.

Results

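The comparison here set 3 libraries of cells given a degrader of EED against 3 libraries of cells given an inhibitor of EZH2 and EZH1, 6 of the 9 libraries of the series. The cells were HNES1, a single embryo-derived human naive pluripotent line of wild-type genotype, kept on mouse feeder cells and then plated without them. The PROTAC group received UNC6852 at 2.5 µM, the UNC group UNC1999 at 1 µM, and the DMSO group the vehicle alone. Treatment began 24 hours ahead of leaving naive medium, was renewed daily, and RNA was taken on day 5 of the move towards a primed-like state in medium with the tankyrase inhibitor XAV939, which all groups shared. The design text states 3 independent runs, and libraries carry numbers 1 to 3 in each group. The doses differed, so each difference below is between a compound at its dose and another compound at another dose, and the effects of compound and dose cannot be told apart.

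Polycomb repressive complex 2 (PRC2) puts methyl groups on lysine 27 of histone H3 and so helps keep developmental genes silent. EZH2 or EZH1 carries the catalytic site, EED reads the mark and stimulates the enzyme, and SUZ12 holds the complex together. UNC6852 is a bifunctional molecule that brings EED to the VHL ubiquitin ligase for destruction by the proteasome, while UNC1999 occupies the catalytic pocket and leaves the complex in place. In human cells on the way out of the naive state PRC2 is known for holding back trophoblast and other lineage genes.

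Library totals ran from 31651742 to 101081643 counts, and mitochondrial transcripts took 3.44% ± 0.237 of counts in PROTAC, 4% ± 0.667 in UNC and 4.51% ± 0.526 in DMSO (SD, n = 3). The pluripotency genes POU5F1 (677 to 791 CPM) and NANOG (431 to 527 CPM) were high in all 9 libraries, which fits the labelled cell type. The endoderm marker SOX17 stayed at or below 0.131 CPM, the trophoblast marker ELF5 at or below 0.0236 CPM, the neural marker PAX6 at or below 0.306 CPM, and the fibroblast marker LUM had 0 counts in every library. Other lineage markers were present: the trophoblast hormone subunit CGA at 1.55 to 24.6 CPM, GATA3 at 0.471 to 2.94 CPM, the mesoderm factor TBXT at 1.33 to 6.98 CPM, ISL1 at 1.82 to 3.11 CPM and PDGFRB at 0.75 to 2.02 CPM over the 9 libraries. CPM are read counts brought to a common library total with a correction for composition, and not divided by gene length, so they compare libraries and not genes. In bulk RNA, fewer cells of a type and less RNA per cell cannot be told apart.

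The direct contrast of the compounds was fitted with edgeR's quasi-likelihood test on all 9 libraries, first by group alone and then with the replicate number as a block, called the paired fit below. A gene is called at a Benjamini-Hochberg adjusted p under 0.05 over the 24187 genes tested, and every adjusted p below comes from this test. By group alone 2 genes were higher in PROTAC than in UNC and 0 were lower, 0.00827% of the genes tested. An unadjusted p under 0.05 was reached by 1137 genes, no more than that threshold gives among 24187 genes without any difference. DESeq2 by group alone gave 110 higher and 19 lower. In the paired fit 524 genes were higher (2.17%) and 179 were lower (0.74%). Libraries that share a number varied together, and blocking on it took the biological coefficient of variation from 13.2% to 6.09%. The counts of the paired fit moved with single libraries: they were 282 higher and 71 lower without UNC 3, 317 and 81 without UNC 1, 347 and 70 without PROTAC 2, 371 and 98 without PROTAC 3, and 357 and 83 without UNC 2. The all-gene median log2 fold change was -0.005.

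The genes that were higher with the degrader mostly sat near vehicle there and below vehicle with the inhibitor. Over the 524 genes the median log2 fold change of PROTAC over UNC was 0.486, beside 0.011 for PROTAC over DMSO and -0.521 for UNC over DMSO. Over the 179 lower genes the 3 medians were -0.339, 0.093 and 0.429. These medians describe genes picked on the first contrast, and the comparisons with DMSO share its libraries, so they place the levels and test nothing. For the vehicle comparisons cited gene by gene below, the paired fit called 2.99% of all genes with UNC6852 (2.01% higher, 0.984% lower) and 13.5% with UNC1999 (7.04% higher, 6.46% lower). Most differences were small: 100 of the 524 were at least 2-fold higher and 8 of the 179 at least 2-fold lower. The direction was the same in all 3 pairs for 520 and 177 genes, beside 8137 of the 24187 genes tested. The paired fit picked the called genes on these same pairs, so this agreement and the separation below follow largely from the selection. The 3 PROTAC libraries lay wholly above the 3 UNC libraries for 337 of the 524 and wholly below them for 97 of the 179, beside 5.16% and 3.93% of all genes tested (9.09% either way).

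**Figure D1:**
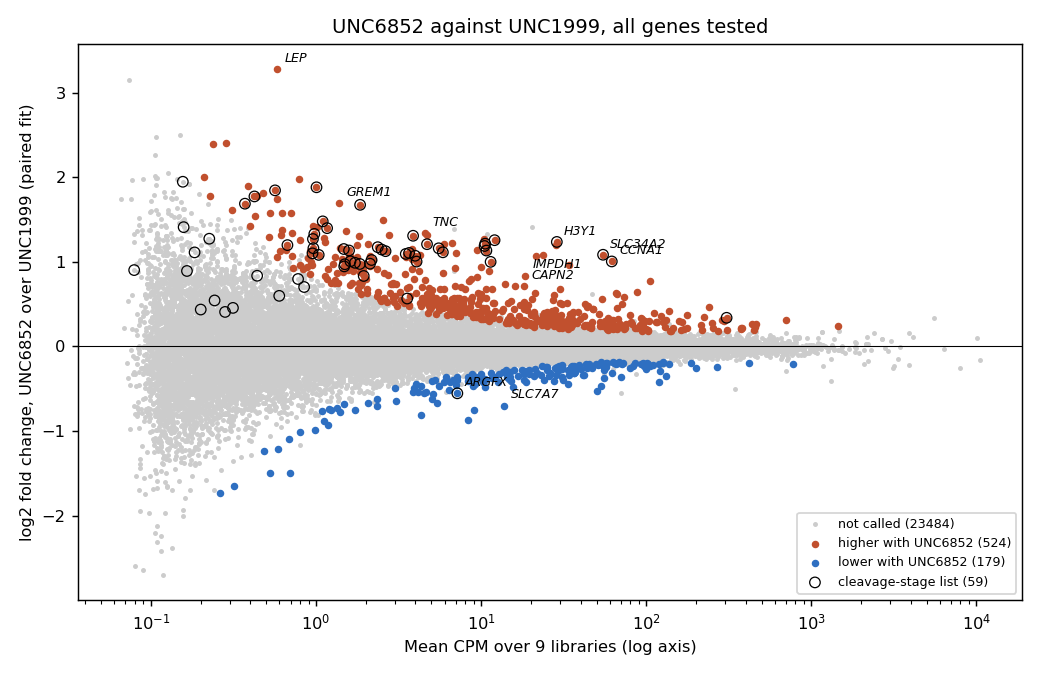
Each point is 1 of the 24187 genes tested, with its mean CPM over the 9 libraries on a log axis and the log2 fold change of UNC6852 over UNC1999 in the paired fit. The 524 genes called higher reach 3.28 and include most circled members of the cleavage-stage list, while most of the 179 called lower lie within 1 log2 unit of 0.

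The genes called by group alone were IMPDH1 and CAPN2, each lower with the inhibitor and near vehicle with the degrader. IMPDH1 makes the first committed step of guanine nucleotide synthesis (GRCh38 chromosome 7, 128392277 to 128409986, minus strand). It was at 21.8, 21.2 and 24.1 CPM in PROTAC 1 to 3, 11.7, 13.6 and 12.4 CPM in UNC 1 to 3, and 19.2, 20 and 21.9 CPM in DMSO 1 to 3. All PROTAC libraries lay above all UNC libraries. The log2 fold change was 0.83 by group alone (SE 0.0955, adjusted p = 0.0218) and 0.84 in the paired fit (SE 0.0748, adjusted p = 8.74e-10), and an unnamed gene overlaps its locus.

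CAPN2 is the large subunit of m-calpain, a calcium-dependent protease (chromosome 1, 223701593 to 223776018, plus strand). It was at 20, 22.8 and 21.1 CPM in PROTAC, 12.3, 13.8 and 12.8 CPM in UNC, and 19, 20.9 and 21.7 CPM in DMSO. Here too the compounds did not overlap, and PROTAC lay within or near the vehicle range. The log2 fold change was 0.72 by group alone (SE 0.0939, adjusted p = 0.0477) and 0.71 in the paired fit (SE 0.0723, adjusted p = 1.43e-08). By group alone IMPDH1 lost its call under 9 of 24 alternatives, among them leaving out DMSO 2, PROTAC 1, PROTAC 3 or UNC 3 (adjusted p = 0.0694, 0.0852, 0.28 and 0.302). CAPN2 lost it under 18 of 24, among them leaving out any single library (adjusted p 0.0502 to 0.321), while in the paired fit both kept it under 22 of 23, the exception being a demand for a 2-fold change.

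The relatives of these genes were mostly not called. Of 22 purine synthesis and salvage genes 2 were higher in the paired fit and 0 lower (9.09%, beside 2.91% of all genes), with a list median of 0.01. The other was PNP, which splits purine nucleosides, at 300, 262 and 238 CPM in PROTAC against 196, 203 and 179 CPM in UNC (log2 fold change 0.47, adjusted p = 8.42e-08). Of 28 annexin, S100 and calpain genes 5 were higher and 0 lower (17.9% called, median 0.08). They were the calcium-binding proteins S100A6 (1.03) and S100A16 (0.87), CAPN2, its inhibitor calpastatin CAST (0.47) and ANXA3 (0.42). S100A6 was at 6.46, 4.31 and 3.94 CPM in PROTAC and 2.78, 2.29 and 2.11 CPM in UNC, without overlap. CAST lost its call without UNC 3, and ANXA3 without UNC 1 or UNC 3 (adjusted p up to 0.0825 and 0.095 over the leave-outs).

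Transcripts of the complex that both compounds address did not differ detectably between them. EED, the degrader's target, was at 12.4, 12 and 12.7 CPM in PROTAC, 12.2, 12.8 and 11.3 CPM in UNC and 11.1, 11.3 and 12.5 CPM in DMSO, with overlapping groups (log2 fold change 0.04, SE 0.0836, adjusted p = 0.92 in the paired fit). A transcript level says nothing of the protein that the degrader acts on, and proteins were not analysed here. For EZH2 the log2 fold change was -0.11 (SE 0.0631, adjusted p = 0.478), EZH1 was at -0.04 (SE 0.0621, adjusted p = 0.871) and SUZ12 at -0.05 (SE 0.053, adjusted p = 0.772), all in the paired fit. EZH2 was at 45.5, 51.2 and 50.6 CPM in PROTAC and 50.6, 60.4 and 48.6 CPM in UNC, and the groups overlapped.

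Of 8 accessory subunits of PRC2 that were tested, 1 was called (12.5%, beside 2.91% of all genes). EPOP, a PRC2 partner that links the complex to elongin, was at 12.6, 13.4 and 16.4 CPM in PROTAC, 9.86, 9.71 and 9.84 CPM in UNC and 10.4, 11.5 and 12.5 CPM in DMSO. It was higher in PROTAC in all 3 pairs without overlap (paired log2 fold change 0.51, SE 0.0856, adjusted p = 0.000135; by group alone adjusted p = 0.265). Against DMSO its paired log2 fold change was 0.29 with UNC6852 (adjusted p = 0.0473) and -0.22 with UNC1999 (adjusted p = 0.0893). Of 37 PRC1 genes BCORL1 was the 1 called (0.31), a share of 2.7% that is near the 2.91% of all genes. It lost the call without UNC 1 or number 2 (adjusted p up to 0.109).

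The machinery that a VHL-recruiting degrader draws on also gave no call: 0 of 13 genes of the VHL ligase (list median -0.03) and 0 of 33 proteasome genes (list median -0.02) differed in the paired fit, beside 2.91% of all genes. By group alone 0 members of either list had an unadjusted p under 0.05. Among 30 hypoxia targets, which VHL normally restrains through HIF, 4 were higher and 0 lower (13.3% called) with a median of 0.02. PFKFB3, which makes an activator of glycolysis, was at 38.1, 30.3 and 35.2 CPM in PROTAC and 27.8, 24.4 and 20.8 CPM in UNC (0.51, adjusted p = 4.46e-05). It stood at 35.0, 30.2 and 35.7 CPM in DMSO, so for this gene the UNC libraries were the low ones. Over the hypoxia list the median was 0.11 for PROTAC over DMSO and 0.07 for UNC over DMSO. The hypoxia count was 2 without UNC 3 and 1 without number 3.

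Genes of the human cleavage embryo were 43 of the 524 higher with the degrader and 36 of the 100 that were at least 2-fold higher. Their list, described below, held 59 of the 24187 genes tested, and many of its members are near-identical copies. At the first cell divisions the homeobox factor DUX4 switches on a set of multicopy genes, among them TRIM43, PRAMEF, MBD3L and RFPL family members, the histone variants H3Y1 and H3Y2 and the demethylase KDM4E. A list of 77 such genes was put together after their values had been seen, so its counts are a description. Of the 77, 59 were tested, 16 were below the expression filter and 2 had no entry of their name. Of the 59, 43 were called higher in PROTAC, 1 lower and 15 not (74.6% called, beside 2.91% of all genes), and 58 had a positive log2 fold change. The median log2 fold change was 1.11, beside 0.24 for PROTAC over DMSO and -0.83 for UNC over DMSO.

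The sequences before the start sites of 5 of these genes are shown. Among them, 4 were chosen because they hold an exact match to a site that DUX4 is known to bind, and TRIM64B because it holds none. This double homeobox site was searched here as TAA, any 3 bases, then AATCA on both strands in the 300 bases around each start (250 before and 50 after) in RefSeq promoters of GRCh38.p14. Of all 22114 promoters with a unique symbol 0.968% held it. Only 44 of the 59 genes (74.6%) had a promoter in that set, under the 80% needed, so the share for the list is void. Among the 44, 16 held the site and the rest did not. The list was made of genes linked to DUX4 and holds near copies, so this count is not set against all promoters. The 250 bases before each start follow, 5′ to 3′ on the gene's strand, with the match in capitals. They lie at chr11:55261905-55262154 (plus strand) for TRIM48, chr11:49028573-49028822 (plus) for TRIM49B, chr11:55883047-55883296 (plus) for TRIM51, chr5:17655850-17656099 (minus) for H3Y1 and chr11:89878488-89878737 (minus) for TRIM64B.
TRIM48: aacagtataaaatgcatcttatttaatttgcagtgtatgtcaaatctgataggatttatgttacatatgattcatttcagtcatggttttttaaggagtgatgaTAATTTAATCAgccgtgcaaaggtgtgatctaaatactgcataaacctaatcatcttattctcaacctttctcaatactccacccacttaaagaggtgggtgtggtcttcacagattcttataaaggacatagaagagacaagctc
TRIM49B: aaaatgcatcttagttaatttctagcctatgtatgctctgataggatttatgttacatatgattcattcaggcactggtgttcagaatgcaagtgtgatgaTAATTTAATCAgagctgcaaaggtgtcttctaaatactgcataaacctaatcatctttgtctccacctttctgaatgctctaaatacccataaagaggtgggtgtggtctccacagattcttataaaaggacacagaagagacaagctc
TRIM51: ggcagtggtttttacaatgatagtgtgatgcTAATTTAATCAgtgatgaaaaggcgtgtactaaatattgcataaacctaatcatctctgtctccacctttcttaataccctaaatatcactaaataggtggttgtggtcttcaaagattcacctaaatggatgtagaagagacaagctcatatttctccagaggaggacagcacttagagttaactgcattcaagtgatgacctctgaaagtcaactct
H3Y1: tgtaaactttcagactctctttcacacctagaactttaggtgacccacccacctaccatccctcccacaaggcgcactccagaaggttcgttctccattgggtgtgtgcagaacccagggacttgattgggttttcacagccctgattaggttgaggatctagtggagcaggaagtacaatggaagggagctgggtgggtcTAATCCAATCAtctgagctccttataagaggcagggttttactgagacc
TRIM64B: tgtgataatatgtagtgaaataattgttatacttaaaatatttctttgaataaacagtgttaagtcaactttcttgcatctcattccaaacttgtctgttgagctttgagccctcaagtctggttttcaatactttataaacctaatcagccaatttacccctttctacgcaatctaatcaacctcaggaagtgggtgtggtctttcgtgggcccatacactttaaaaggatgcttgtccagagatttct
The match began 146, 149, 219 and 49 bases before the start in TRIM48, TRIM49B, TRIM51 and H3Y1. TRIM48 and TRIM49B were 86.7% identical over 241 aligned bases here, the highest of the pairs aligned. TRIM49B and TRIM51 followed with 82.2% over 180 aligned bases. TRIM48 had 58% with TRIM51, 62.4% with TRIM64B and 51.3% with H3Y1, so likeness before the start varied between the genes. TRIM64B had no exact match in its window and was called higher in PROTAC (1.22, SE 0.0929, adjusted p = 1.57e-11). Only exact matches were counted, and its stretch caatctaatca differs from the searched string in the first base. A match describes these letters and is no evidence of binding in these cells.

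The well covered members named here showed the difference in every pair. H3Y1, a primate-specific histone H3 variant, was at 51.4, 33.0 and 29.8 CPM in PROTAC 1 to 3, 22.4, 15.0 and 11.3 CPM in UNC 1 to 3 and 37.2, 31.7 and 26.8 CPM in DMSO 1 to 3. PROTAC lay above UNC throughout, and number 1 was the highest library of each group (paired log2 fold change 1.24, SE 0.0783, adjusted p = 1.57e-11). TRIM43, a RING finger gene of the cleavage stage, was at 22.2, 11.9 and 14.5 CPM in PROTAC, 10.5, 5.12 and 4.89 CPM in UNC and 15.3, 11.5 and 12.4 CPM in DMSO (1.26, adjusted p = 7.25e-07).

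The homeobox gene TPRX1 was at 20.3, 11.1 and 12.6 CPM in PROTAC and 9.30, 6.02 and 6.48 CPM in UNC (1.00, adjusted p = 8.19e-10). CCNA1, cyclin A1, was at 107, 61.1 and 69.7 CPM in PROTAC and 49.1, 34.4 and 33.9 CPM in UNC (1.00, adjusted p = 3e-09). KDM4E, a histone lysine demethylase, was at 20.2, 9.81 and 11.6 CPM in PROTAC and 10.3, 5.12 and 3.86 CPM in UNC. Its groups overlapped because UNC 1 exceeded PROTAC 2, while each PROTAC library was above the UNC library of its own number (1.13, adjusted p = 9.11e-08). None of these genes was called by group alone, where the adjusted p was 0.265 for H3Y1 and 0.815 for KDM4E, and each kept its call in the paired fit in all 12 leave-outs.

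By family among the list's tested members only, 10 of 10 TRIM genes were called higher (log2 fold change 1.1 to 1.88), beside 2.17% of all genes. So were 12 of 17 PRAMEF genes (all 17 between 0.44 and 1.69), 3 of 4 MBD3L genes and 4 of 5 RFPL genes. Both H3Y and both TPRX genes were also called higher. Of the list's HNRNPCL genes 0 of 3 were called (0.9 to 1.95), of its ZSCAN genes 0 of 2, and of its CPHXL genes 1 of 2. Members were picked after their values were seen, so these counts do not stand for whole families. Near-identical copies in these families can trade reads, so the value of a single member is uncertain. DUX4 itself was near the detection limit at 0.338, 0.406 and 0.0947 CPM in PROTAC and 0.115, 0.127 and 0.0890 CPM in UNC and was not called (log2 fold change 1.27, SE 0.5, adjusted p = 0.214). ZSCAN4, another early target, was not called either (0.57, adjusted p = 0.075), nor was DUXA (0.41, adjusted p = 0.767). The count of members called higher ran from 33 to 44 over the leave-outs, and the median log2 ratio of PROTAC to UNC was 0.79, 0.69 and 0.89 for numbers 1, 2 and 3. Summed over the 59 members, number 1 stood highest in PROTAC at 822 CPM, beside 625 and 669 CPM in PROTAC 2 and 3 and 457, 450 and 433 CPM in UNC 1 to 3.

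**Figure D2:**
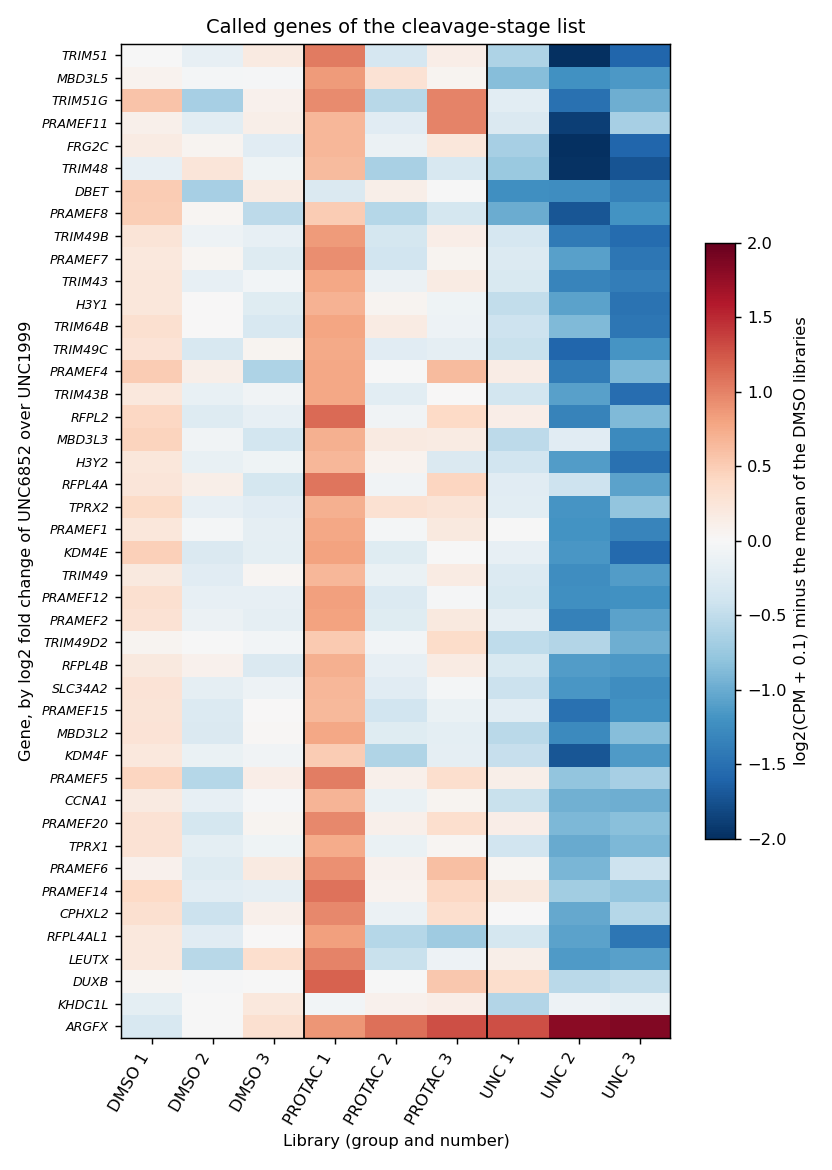
Rows are the 44 called genes of the cleavage-stage list ordered by log2 fold change, columns the 9 libraries, and colour the log2 of CPM plus 0.1 relative to the mean of the DMSO libraries. UNC 2 and UNC 3 are blue in nearly every row, PROTAC 1 is red in most, and ARGFX in the last row is red in all PROTAC and UNC libraries.

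The exception in that list was ARGFX, a homeobox factor active in early embryos and naive cells (chromosome 3, 121567949 to 121590622, plus strand). It was at 2.65, 3.33 and 4.22 CPM in DMSO, 6.26, 7.30 and 8.27 CPM in PROTAC and 8.32, 11.9 and 12.3 CPM in UNC. The 3 groups did not overlap, and the inhibitor gave the highest levels. The paired log2 fold change of PROTAC over UNC was -0.55 (SE 0.098, adjusted p = 0.000317), with 1.12 for PROTAC over DMSO (adjusted p = 5.01e-08) and 1.68 for UNC over DMSO (adjusted p = 7.37e-14). Without number 2 the contrast of the compounds was not called (adjusted p = 0.0607).

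Outside the cleavage-stage list, LEP, GREM1, DSCR10, CSH2, TNC, CXCL14 and C1QL4 were among the 12 called genes with the largest rises of those with a symbol, without overlap and with at least 1 CPM in PROTAC. LEP, the hormone leptin, was at 0.370, 0.840 and 1.89 CPM in PROTAC and 0.0289, 0.204 and 0.102 CPM in UNC. Its log2 fold change of 3.28 (SE 0.461, adjusted p = 3.54e-05) was the highest of the called genes and rests on few reads in UNC. The BMP antagonist GREM1 was at 2.18, 0.868 and 2.15 CPM in PROTAC and 0.645, 0.612 and 0.356 CPM in UNC (1.69, adjusted p = 0.000566). Without overlap between the compounds, PROTAC 2 was nonetheless close to the UNC range.

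TNC, the matrix protein tenascin C, was at 7.04, 4.30 and 5.84 CPM in PROTAC, 2.88, 2.32 and 1.61 CPM in UNC and 6.96, 5.16 and 5.26 CPM in DMSO (1.34, SE 0.136, adjusted p = 1.82e-08). The chemokine CXCL14 was at 3.45, 2.80 and 4.61 CPM in PROTAC and 1.68, 1.17 and 1.28 CPM in UNC (1.31, adjusted p = 0.00179). DSCR10 (1.42) and the secreted C1q-like protein C1QL4 (1.31) were also without overlap. The other 5 of the 12 were TRIM51 (1.88), FRG2C (1.67), TRIM48 (1.48), DBET (1.40) and PRAMEF8 (1.33) of the list above. TRIM48 lost its call without PROTAC 1 or UNC 3 (adjusted p up to 0.143), DBET without PROTAC 2 (0.0672), and PRAMEF8 without PROTAC 1 or UNC 1 (up to 0.111), while the other 9 kept it in all 12 leave-outs.

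The smallest adjusted p values belonged to PLXNB3, a semaphorin receptor, and SRPK3, a muscle kinase, named after their values were seen. PLXNB3 was at 38.0, 25.0 and 28.1 CPM in PROTAC and 17.3, 12 and 13.7 CPM in UNC (1.08, adjusted p = 1.89e-13), and SRPK3 had 1.07 (adjusted p = 2.38e-13). The genes overlap on chromosome X (153764196 to 153779346 and 153776412 to 153785732, both on the plus strand), so reads of the pair may not be separable.

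Trophoblast is the outer lineage of the embryo that naive cells can still form. Of 47 tested genes of the list 13 were higher in PROTAC than in UNC, 0 lower and 34 not called (27.7% called, beside 2.91% of all genes). The list's median log2 fold change was 0.35, beside -0.16 for PROTAC over DMSO and -0.56 for UNC over DMSO. The placental lactogen genes CSH1 and CSH2, near-identical neighbours, had 1.05 and 1.37. CSH1 was at 3.12, 3.40 and 3.69 CPM in PROTAC, 1.49, 1.35 and 2.10 CPM in UNC and 3.40, 3.77 and 4.60 CPM in DMSO (SE 0.147, adjusted p = 7.65e-06).

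The transcription factor GATA2 was at 2.77, 5.68 and 5.05 CPM in PROTAC, 1.26, 3.06 and 2.40 CPM in UNC and 2.73, 6.24 and 5.11 CPM in DMSO. The groups overlapped because number 1 was low in each of them, and within each number PROTAC was above UNC (1.03, SE 0.131, adjusted p = 1.22e-06; by group alone adjusted p = 0.832). GATA3, which specifies trophoblast, was at 1.32, 1.74 and 2.02 CPM in PROTAC, 0.471, 1.02 and 1.00 CPM in UNC and 1.76, 2.94 and 2.17 CPM in DMSO (1.07, SE 0.206, adjusted p = 0.00105). Without UNC 1 GATA3 just missed the call (adjusted p = 0.0505). TFAP2A (1.38) lost its call in 5 of 12 leave-outs, among them UNC 2 and UNC 3 (adjusted p up to 0.436). CGA, the hormone subunit, was at 1.67, 24.6 and 14.3 CPM in PROTAC and 1.55, 12.6 and 3.61 CPM in UNC, spread widely by number, and was not called (1.12, SE 0.429, adjusted p = 0.404). The summed level of the trophoblast list was 1600 to 1720 CPM in PROTAC, 1400 to 1620 CPM in UNC and 1460 to 1700 CPM in DMSO, and 10 of its 57 members were below the filter.

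Of 21 amnion genes 5 were higher and 0 lower (23.8% called, beside 2.91% of all genes, median 0.31): KRT17, TNC, WNT6, IGFBP7 and ID3. ID3, a target of BMP signalling, was at 41.2, 39.4 and 29.9 CPM in PROTAC, 28.7, 27.1 and 21.3 CPM in UNC and 42.1, 37.6 and 30.0 CPM in DMSO (0.52, adjusted p = 2e-07). Number 3 was the lowest library of each group. KRT17 lost its call in 8 of 12 leave-outs (adjusted p up to 0.371) and WNT6 in 3 (up to 0.175). The amnion count was 3 without PROTAC 3. Of 24 primitive streak and mesoderm genes 4 were higher and 0 lower (16.7% called, median 0.20), but the count was 0 without PROTAC 1, UNC 1 or UNC 3. The summed level of that list was lower in PROTAC within each number, at 603, 522 and 525 CPM against 613, 545 and 584 CPM in UNC. TBXT, the mesoderm factor brachyury, was at 5.11, 2.13 and 2.84 CPM in PROTAC and 2.21, 1.33 and 1.35 CPM in UNC, with overlap (1.05, SE 0.234, adjusted p = 0.0287).

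**Figure D3:**
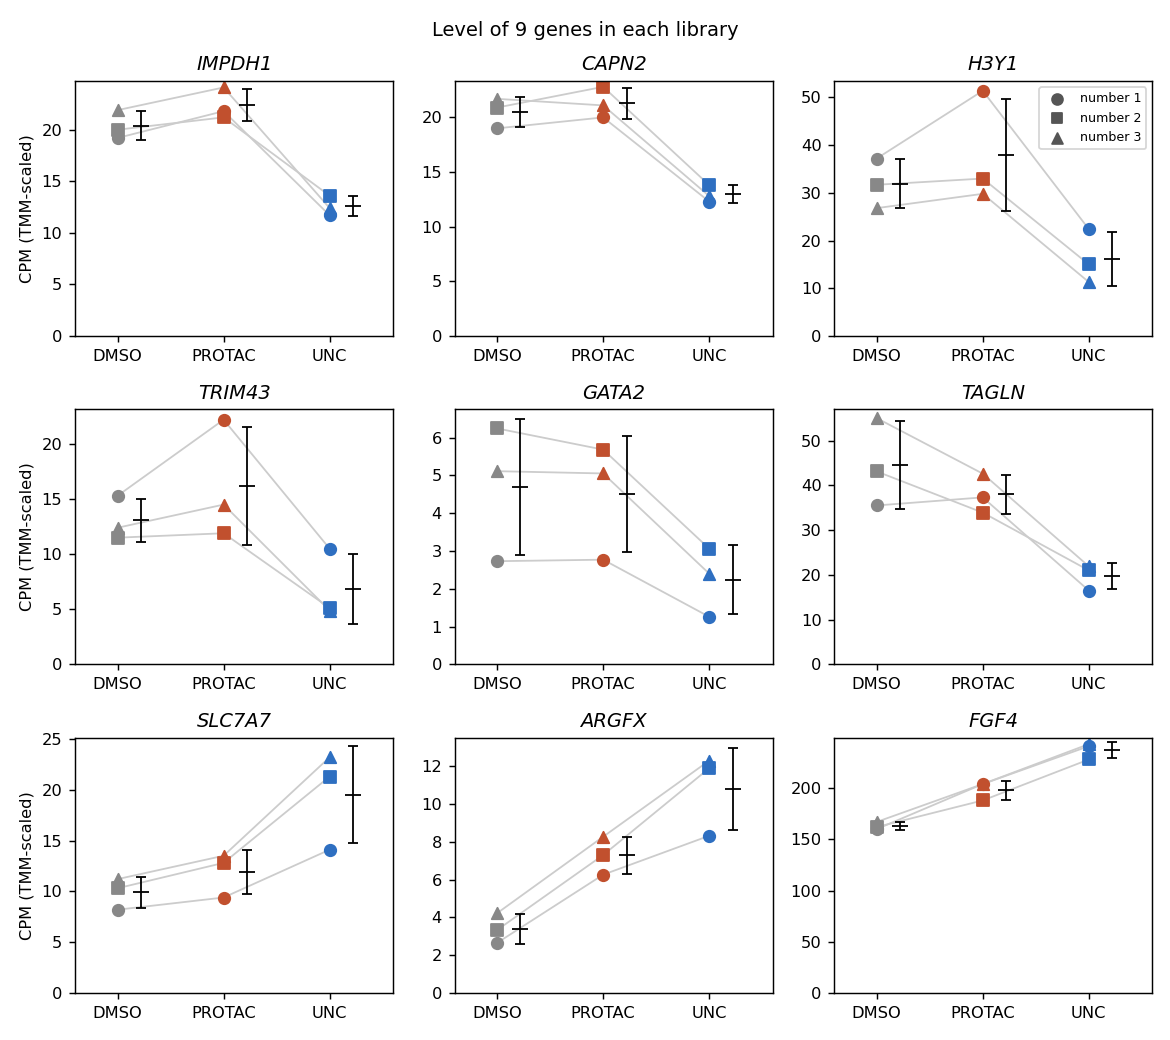
CPM of 9 genes in each library, with grey lines joining libraries of the same number and black bars for the mean and SD (n = 3). IMPDH1, CAPN2, H3Y1, TRIM43, GATA2 and TAGLN fall from PROTAC to UNC within every number, and SLC7A7, ARGFX and FGF4 rise.

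A list of contractile cytoskeleton genes and targets of the YAP coactivator came next. Of 35 tested 11 were higher in PROTAC, 0 lower and 24 not called (31.4% called, beside 2.91% of all genes). The list median was 0.17, beside 0.01 for PROTAC over DMSO and -0.15 for UNC over DMSO. TAGLN, the actin-binding protein transgelin, was at 37.3, 33.9 and 42.6 CPM in PROTAC, 16.5, 21 and 21.9 CPM in UNC and 35.5, 43.1 and 55.0 CPM in DMSO (0.96, SE 0.0793, adjusted p = 2.08e-08). Cardiac actin ACTC1 was at 7.46, 5.69 and 8.65 CPM in PROTAC and 3.48, 2.73 and 3.03 CPM in UNC (1.21, adjusted p = 8.52e-05). CCN1, a secreted matrix protein and YAP target, was at 68.9, 63.2 and 49.3 CPM in PROTAC and 45.7, 45.7 and 32.3 CPM in UNC (0.56, adjusted p = 1.11e-08). These 3 genes did not overlap between compounds and kept their calls in every leave-out, but the count for the list was 6 without PROTAC 1, without UNC 1 or without UNC 3, and 7 without number 1.

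Among 18 fibroblast markers 5 were higher and 1 lower (33.3% called, beside 2.91% of all genes), with a median of -0.02. COL1A1, a chain of type I collagen, was at 72.6, 71.5 and 60.3 CPM in PROTAC, 51.1, 49.3 and 33.8 CPM in UNC and 103, 91.4 and 66.4 CPM in DMSO (0.62, adjusted p = 1.11e-08). It was below vehicle with both compounds, by -0.34 on the log2 scale in PROTAC (adjusted p = 0.000714) and -0.96 in UNC (adjusted p = 1.37e-13). The defining fibroblast genes LUM and DCN were at 0 or at most 0.0289 CPM. The list's summed level was 1920 to 1990 CPM in PROTAC and 1820 to 1930 CPM in UNC, and the count of higher members was 3 without PROTAC 3 or UNC 3.

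Of 33 cholesterol and fatty acid synthesis genes tested 9 were higher in PROTAC, 0 lower and 24 not called (27.3% called, beside 2.91% of all genes). A positive log2 fold change was seen for 32 (median 0.16, beside 0.20 for PROTAC over DMSO and 0.07 for UNC over DMSO). LSS, lanosterol synthase, was at 108, 111 and 95.6 CPM in PROTAC and 83.4, 94.6 and 82.0 CPM in UNC (0.27, SE 0.0514, adjusted p = 0.000677), without overlap. It kept its call in all 12 leave-outs. The list count moved with single libraries: it was 3 without PROTAC 1, 2 without UNC 1 and 4 without UNC 3, and the median log2 ratio was 0.25, 0.06 and 0.19 for numbers 1, 2 and 3.

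**Figure D4:**
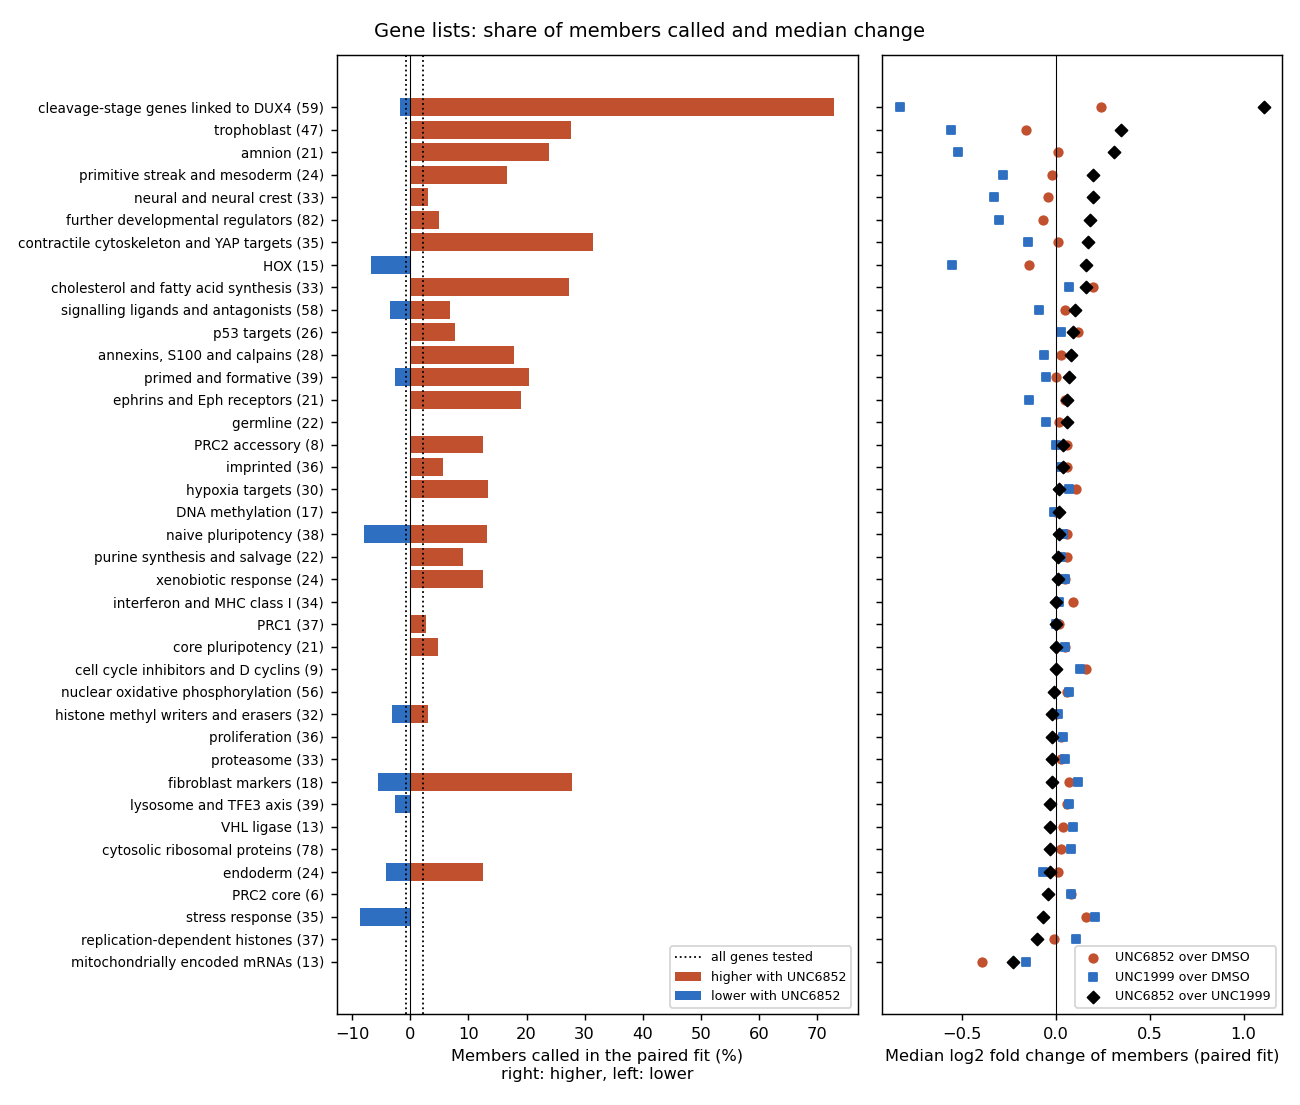
Left, the percentage of tested members of each list called higher (right of 0) or lower (left of 0) in PROTAC than in UNC in the paired fit, with dotted lines at the shares over all genes, 2.17% and 0.74%. Right, the median log2 fold change of each list's members for PROTAC over UNC, PROTAC over DMSO and UNC over DMSO, where the cleavage-stage list stands at 1.11, 0.24 and -0.83.

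Among naive and primed markers calls went in both directions. Of 38 naive genes 5 were higher and 3 lower (21.1% called, median 0.02), and of 39 primed and formative genes 8 were higher and 1 lower (23.1% called, median 0.07), beside 2.91% of all genes. Both counts moved with single libraries, to 2 or 3 naive genes higher without PROTAC 2 or any of the UNC libraries, and to between 3 and 5 primed genes higher without any of the PROTAC libraries, UNC 1 or UNC 3. FGF4, a growth factor of pluripotent cells, was at 160, 162 and 167 CPM in DMSO, 204, 188 and 204 CPM in PROTAC and 241, 228 and 243 CPM in UNC. The 3 groups did not overlap (-0.26 for PROTAC over UNC, SE 0.0493, adjusted p = 0.000892), and without number 2 the adjusted p was 0.0667. SOX11, a factor of primed cells, was at 38.7, 30.4 and 28.1 CPM in PROTAC, 28.8, 20.3 and 17.6 CPM in UNC and 31.3, 27.5 and 22.9 CPM in DMSO (0.55, adjusted p = 6.76e-07). Of 21 core pluripotency genes 1 was called (4.76%), SALL2 at 0.19 (adjusted p = 0.0411), and it lost the call in 10 of 12 leave-outs.

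The genes described next were lower with the degrader than with the inhibitor and belong to the 12 with the largest falls among called genes with a symbol, at least 1 CPM in UNC and no overlap. SLC7A7, a subunit of a cationic amino acid transporter, was at 9.39, 12.8 and 13.5 CPM in PROTAC, 14.1, 21.3 and 23.2 CPM in UNC and 8.19, 10.3 and 11.2 CPM in DMSO. The compounds did not overlap (paired log2 fold change -0.70, SE 0.0791, adjusted p = 1.06e-07), and UNC over DMSO was 0.96 (adjusted p = 4.55e-11). UNC93A, a membrane protein, was at 6.84, 6.30 and 10.0 CPM in PROTAC, 10.9, 12.3 and 15.6 CPM in UNC and 5.14, 5.91 and 8.98 CPM in DMSO (-0.75, adjusted p = 7.95e-07). DSG3, a cadherin of desmosomes, was at 4.47, 5.00 and 4.67 CPM in PROTAC, 6.92, 7.45 and 7.37 CPM in UNC and 2.32, 3.40 and 3.44 CPM in DMSO (-0.62, adjusted p = 0.00056), so both compounds lay above vehicle.

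These 3 genes and the antisense RNA MYOSLID-AS1 (-0.66, adjusted p = 0.000233) kept their calls in all 12 leave-outs. The antisense RNA overlaps other genes, and whether counting used strand is not stated in the sources at hand. The other 8 of those 12 were ARGFX, CTNNA3 (-0.88), PCDH12 (-0.77), CPS1 (-0.76), ST6GALNAC1 (-0.75), H2AC19 (-0.72), PCSK1 (-0.70) and TOX (-0.67). Those after ARGFX were at 0.631 to 3.97 CPM in both compounds and lost their calls in 5 to 10 of 12 leave-outs. Against DMSO the inhibitor raised all of the 12 in the paired fit except PCDH12 (adjusted p = 0.0559) and H2AC19 (adjusted p = 0.056). None of the 24 genes ranked this way among rises and falls was called by group alone. The 8 called genes that were at least 2-fold lower, down to -1.73, fell outside that ranking. They include RGS4, a regulator of G protein signalling, at a mean of 0.631 CPM in PROTAC and 1.29 CPM in UNC (-1.02), and the axonemal dynein DNAH8 (-1.23), named after their values were seen.

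Smaller sets held further named differences. Of 15 HOX genes tested 11 had a positive log2 fold change, with a list median of 0.16. The single call was HOXB2, which was lower (6.67%, beside 2.91% of all genes). It was at 18.6, 24.3 and 25.5 CPM in PROTAC, 23.3, 31.2 and 36.2 CPM in UNC and 15.3, 19.8 and 21.4 CPM in DMSO (-0.40, adjusted p = 0.000135), with groups that overlapped. Of 24 endoderm genes tested 3 were higher and 1 lower (16.7% called, beside 2.91% of all genes), with a median of -0.03. The count of higher members ran from 0 to 3 over the leave-outs. The lower one was the liver and endoderm receptor HNF4A at -0.54 (adjusted p = 0.0036). HNF4A lost its call without UNC 3 or PROTAC 2 (adjusted p up to 0.107 over the leave-outs). The folate enzyme ALDH1L2, a target of the amino acid stress response, was at 39.1, 37.1 and 43.4 CPM in PROTAC and 48.6, 46.5 and 56.5 CPM in UNC (-0.34, adjusted p = 0.000135). It led 3 lower and 0 higher of 35 stress genes (8.57% called), a count that was 1 without PROTAC 2 or UNC 2 and 5 without DMSO 1.

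The imprinted neighbours IGF2 and H19 were both higher in PROTAC and were the 2 called of 36 imprinted genes (5.56%, beside 2.91% of all genes). IGF2, a fetal growth factor, was at 8.55, 8.26 and 7.26 CPM in PROTAC, 5.75, 5.94 and 4.69 CPM in UNC and 6.66, 6.90 and 7.52 CPM in DMSO (0.57, adjusted p = 0.00065). H19, a noncoding RNA, was at 74.0, 94.2 and 78.8 CPM in PROTAC, 52.5, 72.1 and 67.7 CPM in UNC and 77.8, 114 and 87.1 CPM in DMSO (0.37, adjusted p = 5.73e-05). Neither overlapped between compounds.

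No member was called in the paired fit in the lists for proliferation (36 genes), DNA methylation (17), the germline (22), interferon and MHC class I (34), replication-dependent histones (37), cytosolic ribosomal proteins (78) or nuclear oxidative phosphorylation (56). Over all genes 2.91% were called, a share that gives few calls in lists of these sizes. The 13 mitochondrially encoded mRNAs were not called either, with a median of -0.23 and medians by number of -0.29, 0.12 and -0.51. A missing call does not show equal levels, and single leave-outs called up to 5 histone, 4 ribosomal protein and 3 mitochondrially encoded genes lower, and up to 1 proliferation, 1 germline and 1 interferon gene.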

How the data were processed

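The 9 libraries of ribosomal RNA-depleted RNA (the molecule field reads polyA RNA) were made, per the labels' protocols. The authors deposited raw counts, whole numbers by gene in 1 table. Trim Galore 0.6.10, HISAT2 2.2.1 and GRCh38 are named per the submitters' processing notes. How genes were counted, and with which strand setting, is not given in the sources used here. Of 56312 entries 5 had no gene identifier (0.00893% of counts) and 24187 passed filterByExpr by group.

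Counts were analysed with edgeR 4.0.16 (R 4.3.3): TMM scaling and robust quasi-likelihood models over the 9 libraries, by group alone and, as the alternative, with the replicate number as a block, two-sided, at a false discovery rate of 0.05. The numbers were taken to pair the samples because all 9 correlations of deviations between same-numbered libraries were above 0.1 (0.106 to 0.472). That a number marks the same run in every group is not stated in the labels. PROTAC 3 had 0.106 with UNC 3 and 0.0753 with UNC 2, so number 3 is weakly paired between the compounds. The 18 correlations across numbers were -0.324 to 0.0753. Deviations were taken from group means, so these values are not independent of the same-number ones. Residual degrees of freedom were 6 by group alone and 4 paired. DESeq2 1.42.0 and limma 3.58.1 were alternatives, and code was tested on simulated data.

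Groups came from titles. The members and lists were chosen with earlier results of these data known, and the cleavage-stage list after values were seen. Named genes were EED, EZH2, EZH1 and SUZ12, in each direction the 12 called genes with the largest fold change (symbol, at least 1 CPM in the higher group, no overlap), and up to 4 called members per list. Others were named after their values were seen. List members are described by counts without a set test. 1 named list member is not reported here.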

Additional observations from a re-analysis of the deposited data

How the results depend on the processing

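By group alone 2 genes were higher and 0 lower. The fit with the replicate block gave 524 higher and 179 lower, DESeq2 110 and 19, and no expression filter 208 and 38. RLE scaling, limma-voom, a filter at 1 CPM in 3 libraries and thinned counts each gave 1 higher, and the 6 libraries alone, a false discovery rate of 0.01 and a 2-fold minimum each gave 0. Leaving out a library or a number gave 0 to 33 higher and 0 to 2 lower, the most without number 1. Within the replicate block, a false discovery rate of 0.01 gave 337 and 74, a 2-fold minimum 100 and 8, and limma-voom 322 lower, while no replicate block gave 2 and 0. Leave-outs within the block gave 261 to 667 higher and 45 to 257 lower: 347 and 70 without PROTAC 2, 98 lower without PROTAC 3, 317 and 81 without UNC 1, 83 lower without UNC 2, 282 and 71 without UNC 3, 274 and 45 without number 2, and 261 and 71 without number 3. Fewer samples or stricter thresholds enter several of these, and otherwise the cause was not tested. Small differences of uncalled genes changed sign in some leave-outs: EED to -0.043 without UNC 3 and -0.038 without number 3, EZH1 to 0.04 without PROTAC 1, and SUZ12 to 0.001 without PROTAC 2 and 0.016 without number 2. Of 164 genes called in the paired fit whose settings were tried one by one, 74 kept the call in all 12 leave-outs, and none of them reversed. The cleavage-stage list had 33 to 44 members higher over the leave-outs and 36 to 47 under the other settings, which were added after its values were seen. Counts thinned to the smallest library gave 432 higher and 168 lower within the block, and 32 of the 524 higher genes were under 1 CPM in both compounds, where few reads limit precision.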
